A study of Mus musculus with 4 samples.

Results

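The smooth muscle contractile genes are 10 genes picked by name, Acta2, Myh11, Tagln, Cnn1, Actg2, Des, Smtn, Lmod1, Mylk and Myl9, out of 32285 genes in the count table of each lung section. All 10 members held UMIs (unique molecular identifiers, which count captured mRNA molecules) in every section. Cryosections of the upper pulmonary branches came from 4 C57BL/6J mice, 1 male and 1 female in each of 2 groups, with 1 section per mouse. Vaped (V) mice were placed in whole body chambers at 6 to 8 weeks of age and received e-vapor of a Peach Ice flavored juice, coded 0 Per in the sample names, from JUUL pens for 4 h a day on 5 days a week over 9 weeks. Non-Vaped (NV) mice did not receive e-vapor, and the study's methods speak of its controls as exposed to air. Each section was read on a Visium slide, where spots 50 µm across capture poly(A) RNA from several cells at a time.

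Smooth muscle rings the conducting airways and the walls of arteries and veins, and its tone sets the width of both. Force comes from smooth muscle myosin pulling on actin once myosin light chain kinase, driven by calcium, has phosphorylated the regulatory light chain. Smooth muscle is not unique in using these proteins: cardiac muscle is rich in desmin, alveolar myofibroblasts and pericytes can make smooth muscle actin, and endothelium makes a long form of myosin light chain kinase. In mouse lung, cardiac muscle reaches from the heart along the pulmonary veins, so a section through the upper branches can hold it.

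The sections held 473 to 2053 spots and 6957392 to 34308556 UMIs, with medians of 6259 to 11355 UMIs per spot. Section pairs shared 277 to 1167 spot barcodes, which name positions on the slide and not cells. The V male section stood apart in tissue content. Its 10 cardiac muscle genes summed to 28.4 CPM (UMIs scaled to 1000000 per section or class), against 7456 to 13879 CPM in the other sections, and its 10 airway epithelium genes to 695 CPM against 2672 to 14296 CPM. Of these, 3 genes of ciliated cells, Foxj1, Ccdc153 and Tmem212, had 0 UMIs in the V male and UMIs in the other sections, and so did Myocd, the gene of the smooth muscle coactivator myocardin. Surfactant and other alveolar epithelium genes reached 45386 CPM there, against 22289 to 33575 CPM elsewhere. The members' tests are therefore also given without the V male where that changes a call.

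The members lie on 7 chromosomes of GRCm38, the build of the deposited tables, and each is protein coding. Acta2 (chr19:34241090-34255590) and Actg2 (chr6:83512905-83536265) encode the vascular and enteric smooth muscle actins. Myh11 (chr16:14194535-14291372) encodes the smooth muscle myosin heavy chain, Myl9 (chr2:156775420-156781658) its regulatory light chain and Mylk (chr16:34745210-35002420) the kinase of that chain. Tagln (chr9:45929619-45936058), Cnn1 (chr9:22099216-22109630) and Smtn (chr11:3517523-3540612) encode the actin-binding proteins transgelin, calponin and smoothelin. Lmod1 (chr1:135324807-135368065) encodes leiomodin, which nucleates actin filaments, and Des (chr1:75360329-75368579) the intermediate filament desmin. The actins are near-identical as proteins. Where reads fell in coding sequence, Acta2, Actg2 and the striated actins may not have been told apart fully, and their levels are uncertain to that extent.

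Many contractile genes carry CArG boxes, the sites bound by serum response factor with its partner myocardin, and the promoters of Acta2 and Myl9 are shown because they were the members at hand whose promoters held such letters. Promoter sequences of 7 of the 10 members, from 250 bases before to 50 bases after the RefSeq start on GRCm38.p6, were at hand, and Myh11, Tagln and Actg2 were not among them. The motif searched was CC, then 6 bases of A or T, then GG, which reads the same on both strands. Capitals below mark every match, with 1 other base allowed among the inner 6.
Acta2 promoter, chr19:34255324-34255623, minus strand: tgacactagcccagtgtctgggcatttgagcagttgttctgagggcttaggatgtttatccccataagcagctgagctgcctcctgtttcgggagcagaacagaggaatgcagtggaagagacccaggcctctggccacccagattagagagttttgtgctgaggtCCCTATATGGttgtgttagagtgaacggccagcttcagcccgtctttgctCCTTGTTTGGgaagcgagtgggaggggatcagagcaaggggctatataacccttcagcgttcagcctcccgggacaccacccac
Myl9 promoter, chr2:156775214-156775513, plus strand: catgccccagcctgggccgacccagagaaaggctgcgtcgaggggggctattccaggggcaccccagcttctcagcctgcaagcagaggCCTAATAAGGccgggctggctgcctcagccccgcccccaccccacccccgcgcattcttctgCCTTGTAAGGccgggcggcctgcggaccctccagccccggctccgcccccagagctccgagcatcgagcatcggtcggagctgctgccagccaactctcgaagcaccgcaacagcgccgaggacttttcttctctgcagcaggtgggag
In Acta2, CCCTATATGG began at position -84 and CCTTGTTTGG at -34 from the start, both with 1 base other than A or T inside. In Myl9, the exact match CCTAATAAGG began at -161 and the near match CCTTGTAAGG at -99. The promoters of Cnn1, Des, Lmod1, Mylk and Smtn held no match in this window. The windows of Mylk (chr16:34784700-34784999) and Smtn (chr11:3539243-3539542) lie inside the gene spans given above. No other start of these genes was searched. Of 32851 RefSeq promoters of the same length, 1.63% held an exact match and 9.98% held at least 1 match with the looser rule.

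Levels over whole sections are CPM of all UMIs in the section, without division by gene length, since capture is from the poly(A) end, and are compared between sections only. Acta2 stood at 140.2 (NV male), 118 (NV female), 46.5 (V male) and 163 (V female) CPM. Actg2 stood at 8.20 (NV male), 5.32 (NV female), 1.85 (V male) and 14.4 (V female) CPM. For both actins the V female was highest and the V male lowest, with both NV sections between them.

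Myh11 was measured at 42.0 (NV male), 27.6 (NV female), 20.5 (V male) and 49.9 (V female) CPM. Its light chain Myl9 was measured at 89.9 (NV male), 91.1 (NV female), 32.7 (V male) and 119 (V female) CPM. The V male was again lowest and the V female highest for both parts of the myosin motor. Mylk took the opposite order, at 194 (NV male), 147 (NV female), 275 (V male) and 144 (V female) CPM, with the V male highest and the NV female and the V female close together.

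Of the genes for actin-binding proteins, Cnn1 ranged most, at 9.16 (NV male), 4.89 (NV female), 0.673 (V male) and 19.2 (V female) CPM. Its V male level came from 8 UMIs in all, with a 95% Poisson interval of 0.291 to 1.33 CPM that covers counting error only. Lmod1 stood at 9.59 (NV male), 5.89 (NV female), 4.21 (V male) and 11.6 (V female) CPM. Both followed the order of the actins.

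Tagln varied least, at 103 (NV male), 95.4 (NV female), 84.9 (V male) and 111 (V female) CPM. Smtn stood at 65.2 (NV male), 66.7 (NV female), 38.2 (V male) and 57.8 (V female) CPM, and Des at 147 (NV male), 142 (NV female), 42.3 (V male) and 123 (V female) CPM. These last genes were the members for which both V sections lay below both NV sections, as did 14.2% of the 14382 genes with a mean of at least 1 CPM. Over all members, 9 of 10 were lowest in the V male, against 26.0% of those genes. Fewer smooth muscle cells in a section and less RNA per cell cannot be told apart in such sums, which also include cardiac muscle. Cardiac-rich spots, defined below, held 32.8% (NV male), 40.8% (NV female) and 26.8% (V female) of the members' UMIs. The V male had 0 such spots.

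**Figure D1:**
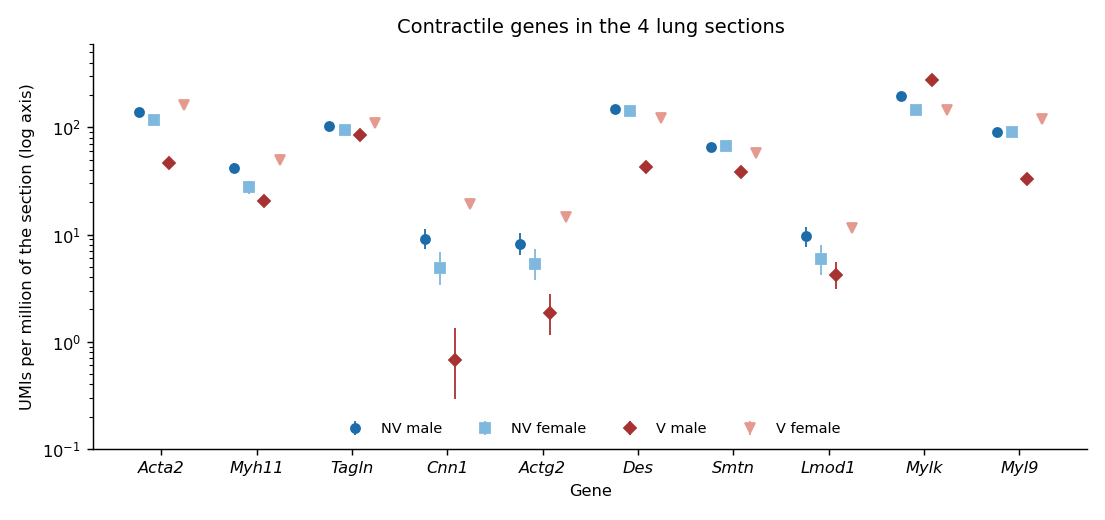
Levels of the 10 contractile genes in each section, in CPM on a log axis, with 95% Poisson intervals that cover counting error only (1 section per mouse). The V male (dark red diamonds) is lowest for 9 genes and highest for Mylk, at 275 CPM.

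Spots differed widely in how often they held a member. Mylk had a UMI in 73.2% (NV female) to 78.1% (V male) of spots and Cnn1 in 0.511% (V male) to 18.6% (V female). Spots were then thinned to 3000 UMIs each, leaving out 52 to 224 shallower spots per section. The same sections gave 38.7% (95% exact binomial interval 34.0 to 43.6%) and 55.2% (52.6 to 57.9%) for Mylk. For Cnn1 they gave 0.293% (0.08 to 0.750%) and 4.92% (3.98 to 6.01%). Acta2, at 30.0%, 23.3%, 11.6% and 31.2% of thinned spots in the NV male, NV female, V male and V female, was seen least often in the V male at equal depth too.

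Whether the members share spots was described outside cardiac muscle. In each section the 10% of spots with the highest share of UMIs in the other 9 members was taken, and the share of a gene's UMIs in those spots was divided by their share of all UMIs. Cnn1 was 4.16 to 6.63 times as dense there, Acta2 2.44 to 4.50 times, Actg2 2.43 to 4.74 times and Myh11 2.17 to 4.36 times. Tagln (1.73 to 4.66 times), Lmod1 (1.60 to 4.37 times) and Myl9 (1.66 to 3.69 times) were also denser in every section. Smtn (0.973 to 1.61 times), Mylk (0.985 to 1.39 times) and Des (0.802 to 1.88 times) were lower, and Des reached its highest ratio in the V female. Among 8546 other genes, in the spots richest in all 10 members, the median ratio was 0.99 to 1.03 and the 99th percentile 1.46 to 1.83. Those genes had a UMI in at least 10% of non-cardiac spots in every section. Cnn1, Actg2 and Lmod1 did not, with a UMI in 0.511%, 1.28% and 2.94% of V male spots. Their sparser ratios are thus not matched by that percentile.

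**Figure D2:**
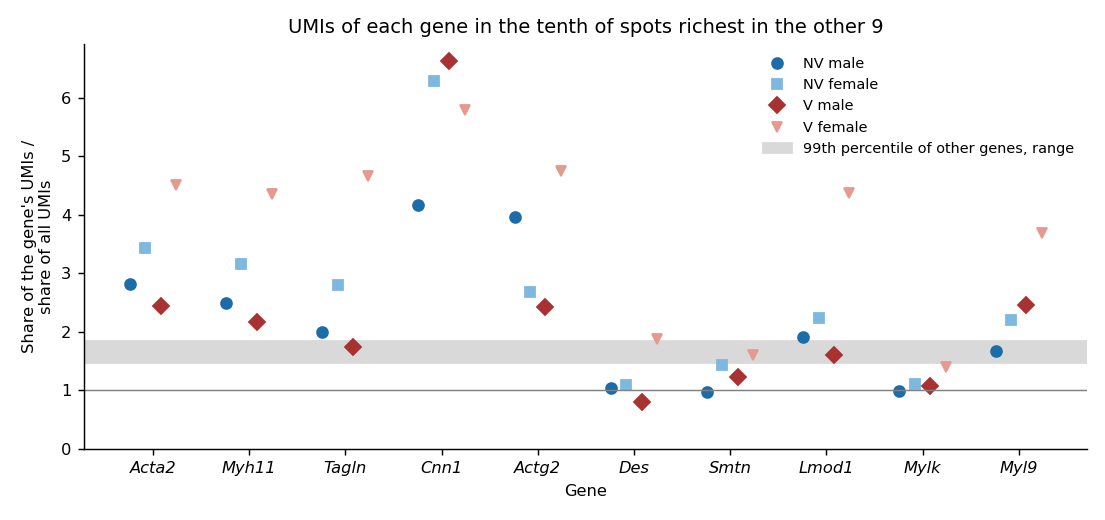
Density of each member in the 10% of non-cardiac spots richest in the other 9 members, as its share of UMIs there over the share of all UMIs (1 marks an even spread), one point per section. The grey band spans the 99th percentiles of 8546 other genes in the 4 sections. Those genes were detected in at least 10% of non-cardiac spots of every section, which Cnn1, Actg2 and Lmod1 were not. Acta2, Myh11, Cnn1 and Actg2 lie above the band in every section, whereas Des, Smtn and Mylk lie lower, between 0.802 and 1.88. The Cnn1 points of the V male and NV female rest on 8 and 23 UMIs, and their Actg2 points on 22 and 15 UMIs.

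To separate the walls of airways from those of vessels, spots with at least 1000 UMIs and under 1% of UMIs in cardiac genes were ranked within each section. The 10% richest in airway epithelium genes, such as Scgb1a1 and Foxj1, were called airway-rich, and the 10% richest in large-vessel endothelium genes, such as Vwf and Gja5, vessel-rich, leaving out spots in both sets. These classes held 39 to 144 spots per mouse. No member helped to define them, so their sums per mouse could be tested against all other such spots by edgeR's quasi-likelihood test with the mouse as a term. A gene counted as called where its p, adjusted after Benjamini and Hochberg over all 12271 genes tested, was under 0.05 and its log2 fold change lay beyond 0.25 in either direction.

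Around airways, Cnn1 and Acta2 were raised. In CPM of airway-rich against other spots, Acta2 reached 239 against 89.2 (NV male), 98.4 against 69.5 (NV female), 43.6 against 45.7 (V male) and 196 against 114 (V female). It was thus higher in 3 of 4 mice, with a log2 fold change of 0.80 (SE 0.19, adjusted p = 0.0277). On the same scale Cnn1 gave 21.9 against 5.45 (NV male), 3.39 against 3.13 (NV female), 1.18 against 0.711 (V male) and 29.1 against 11.7 (V female). It was higher in airway-rich spots of every mouse, by 1.41 (SE 0.31, adjusted p = 0.0128) on the log2 scale, although the NV female and V male values rest on 1 UMI each in that class.

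These 2 calls among 10 members stand beside 1.93% of all genes called. Actg2 (1.06, SE 0.32, adjusted p = 0.131), Tagln (0.52, SE 0.17, adjusted p = 0.189) and Myl9 (0.43, SE 0.16, adjusted p = 0.290) had positive log2 fold changes that were not called. Des (-0.02), Smtn (-0.04) and Mylk (0.03) were close to 0. The median over members was 0.44, against -0.02 over all genes.

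The airway-rich spots of the V male were poor in airway, with 1628 CPM of airway epithelium genes against 31789 to 83492 CPM in the other mice. Without the V male, 3 members were called beside 2.74% of all genes: Acta2 at 1.05 (SE 0.19, adjusted p = 0.00215), Cnn1 at 1.48 (SE 0.29, adjusted p = 0.00531) and Actg2 at 1.21 (SE 0.32, adjusted p = 0.0467). Without the V female, which gave the most UMIs, no member was called, with Acta2 at 0.88 (SE 0.21, adjusted p = 0.109) and Cnn1 at 1.65 (SE 0.62, adjusted p = 0.787). Without the NV male or the NV female, Cnn1 alone was called, and Acta2 stood at 0.54 (SE 0.21, adjusted p = 0.289) and 0.81 (SE 0.21, adjusted p = 0.0606).

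Around vessels, tested against the same other spots, Acta2 was the member called. In vessel-rich spots it stood at 186 (NV male), 172 (NV female), 55.6 (V male) and 281 CPM (V female), above the other spots of the same section in all 4 mice. The log2 fold change was 0.94 (SE 0.19, adjusted p = 0.0218), the 1 call among 10 members beside 0.497% of all genes called. Without the NV female it was 0.85 (SE 0.20, adjusted p = 0.287) and without the V female 0.85 (SE 0.20, adjusted p = 0.0944), so the call did not hold in those fits.

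Other members had fold changes of similar size in vessel-rich spots that missed the threshold. Tagln stood at 99.7, 146, 94.1 and 197 CPM in vessel-rich spots of the NV male, NV female, V male and V female, with a log2 fold change of 0.72 (SE 0.17, adjusted p = 0.0536). Cnn1 (1.36, SE 0.33, adjusted p = 0.0764), Myl9 (0.63, SE 0.15, adjusted p = 0.0790), Lmod1 (1.06, SE 0.30, adjusted p = 0.161), Myh11 (0.73, SE 0.21, adjusted p = 0.180) and Actg2 (1.03, SE 0.35, adjusted p = 0.301) followed. Cnn1 had 0 UMIs in vessel-rich spots of the V male, where 3 UMIs would have been 2.69 CPM. Without the V male, Acta2, Tagln, Cnn1 and Myh11 were called beside 0.83% of all genes, Tagln at 0.92 (SE 0.18, adjusted p = 0.0222) and Myh11 at 1.0 (SE 0.20, adjusted p = 0.0275). Smtn (0.25), Mylk (0.13) and Des (-0.04) had the smallest values.

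**Figure D3:**
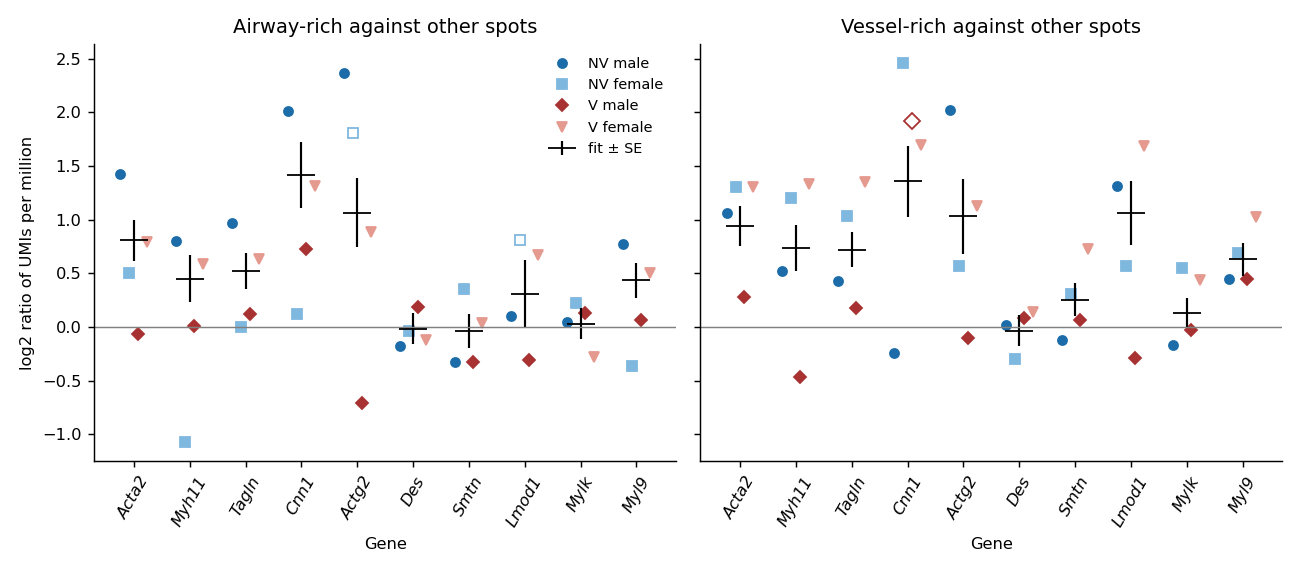
Log2 ratio of CPM in airway-rich (left) and vessel-rich (right) spots to other spots of the same section, one colored point per mouse, with the edgeR estimate ± its standard error in black. Open symbols mark mice with 0 UMIs of the gene in the class, drawn at the ratio that 3 UMIs would give, an upper limit. Acta2 lies above 0 in every mouse on the right and in 3 of 4 on the left, and Des lies near 0 in both panels.

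Set directly against each other, airway-rich and vessel-rich spots differed in 202 genes (1.65% of those tested) and in 0 members by edgeR, with 1 member at an unadjusted p under 0.05. The member was Lmod1, at airway-rich against vessel-rich levels in CPM of 7.30 against 16.9 (NV male), 3.53 against 3.58 (V male) and 13.6 against 27.3 (V female). In the NV female it had 0 UMIs in airway-rich spots, where 3 UMIs would be 10.2 CPM, and 8.60 CPM in vessel-rich spots. Its log2 fold change was -0.76 (SE 0.36, adjusted p = 0.408). By DESeq2's Wald test, 152 genes and 0 members were called. For Acta2 the difference was -0.14 (SE 0.20) and for Cnn1 0.06 (SE 0.36), so the contractile genes gave no call for either wall over the other.

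Some marker genes of airway and vascular smooth muscle were called in a class against other spots, but none of either list in airway-rich against vessel-rich spots. Of 7 airway smooth muscle markers, 3 were tested, and Lgr6, a receptor for R-spondins (1.44, SE 0.31, adjusted p = 0.0116), and Hhip, an inhibitor of hedgehog signaling (0.81, SE 0.20, adjusted p = 0.0405), rose in airway-rich spots. Lgr6 (2.91, SE 0.26, adjusted p = 1.55e-08) and Chrm2, a muscarinic receptor also used by the heart (3.67, SE 0.16, adjusted p = 1.40e-13), rose in cardiac-rich spots as well, where Hhip fell (-1.28). Chrm2 was not called in airway-rich against other spots, and stood at 0.0078 without the V male. As a sum, the 7 airway markers were not highest in airway-rich spots of the NV mice. In airway-rich, vessel-rich and other spots they summed to 42.3, 58.3 and 47.8 CPM (NV male) and 37.3, 51.6 and 36.0 CPM (NV female). Of 7 vascular smooth muscle markers, 6 were tested, and Mustn1 (0.79, SE 0.17, adjusted p = 0.0304) rose in vessel-rich spots. Lgr6 (1.51), Hhip (0.96) and Mustn1 (0.89) were called without the V male too. The markers were not read with any other mouse left out. Without the V female, calls over all genes fell from 237 to 21 in airway-rich and from 61 to 20 in vessel-rich against other spots. Whether the marker calls hold there is therefore not known. Directly between the classes, Lgr6 stood at 1.24 (adjusted p = 0.169), Hhip at 0.80 (adjusted p = 0.144) and Mustn1 at -0.39 (adjusted p = 0.442). In the contrasts with other spots, Ucp1, the uncoupling protein of brown fat, fell in airway-rich (-1.26) and vessel-rich spots (-2.18). None of the 7 pericyte, 7 fibroblast or 6 elastic fibre and myofibroblast markers was called in airway-rich or vessel-rich spots against other spots, and Lum, a fibroblast gene, was higher in airway-rich than in vessel-rich spots (1.0, SE 0.23, adjusted p = 0.0264).

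Some spots belonged to both classes, and in the V female, where 39 spots did, 7 of 10 members were denser than in either class alone. Acta2 reached 409 CPM there against 196 CPM in airway-rich and 281 CPM in vessel-rich spots, Myh11 143 against 55.7 and 93.4 CPM, and Cnn1 85.2 against 29.1 and 38.0 CPM. Smtn (70.2 CPM), Mylk (174 CPM) and Lmod1 (26.5 CPM) lay between the classes, below their vessel-rich levels of 83.4, 209 and 27.3 CPM. This comes from 1 mouse and has no test, since the other sections held 1 to 12 such spots. In the NV male (6 spots) and the V male (12 spots) the 10 members together stood at 625 and 555 CPM there. That was below their airway-rich (966 and 571 CPM) and vessel-rich spots (810 and 566 CPM). The 1 such spot of the NV female held 0 UMIs of the members.

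Most members were higher in cardiac muscle than in the other spots. Cardiac-rich spots, with at least 1% of UMIs in 10 cardiac genes such as Tnni3 and Myl7, numbered 191 (NV male), 60 (NV female) and 185 (V female), and the V male had 0. Des stood at 329, 377 and 338 CPM in cardiac-rich spots of these 3 mice, in that order, and at 95.5, 66.1 and 78.9 CPM in other spots, a log2 fold change of 2.62 (SE 0.13, adjusted p = 1.25e-12). Every cardiac-rich value lay above every other-spot value. In these mice, 44.7% (V female) to 65.4% (NV female) of all Des UMIs came from cardiac-rich spots, which held 16.3% and 24.6% of the UMIs of those sections.

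The smooth muscle actins and myosins were raised there as well. Acta2 stood at 235, 234 and 273 CPM in cardiac-rich and 89.2, 69.5 and 114 CPM in other spots of the same mice, a log2 fold change of 1.80 (SE 0.19, adjusted p = 2.04e-07). Myh11, a myosin that cardiac muscle replaces with Myh6 and Myh7, stood at 67.8, 40.9 and 72.6 CPM against 31, 21.4 and 37.0 CPM, by 1.36 (SE 0.20, adjusted p = 1.14e-05). Actg2 (2.22), Myl9 (1.75), Cnn1 (1.72), Tagln (1.56), Smtn (1.31) and Lmod1 (1.2) also rose on the log2 scale, so that 9 of 10 members were called higher, beside 37.1% of all genes called in either direction.

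Mylk was the member that fell. It stood at 81.0, 53.1 and 88.1 CPM in cardiac-rich and 229, 169 and 155 CPM in other spots of the same mice, a log2 fold change of -0.81 (SE 0.16, adjusted p = 3.68e-04). With cardiac-rich set at 0.5% of UMIs it was -0.27 (SE 0.13, adjusted p = 0.187) and was not called. The other 9 members were called at 0.5%, beside 15.5% of all genes. At 0.5%, 688 of the 842 spots of the NV male counted as cardiac-rich, against 191 at 1%, so the class took in most of that section. At 1%, where 37.1% of all genes were called, all 6 lung epithelium markers fell in cardiac-rich spots, and other marker lists were split. Of 7 fibroblast markers 5 rose and 2 fell, of 7 tested large-vessel endothelium markers 3 rose and 2 fell, and of 7 pericyte markers 2 rose and 4 fell. Of 6 tested vascular smooth muscle markers 1 fell and 2 rose, the latter being Itga7 (1.94) and Mustn1 (0.64). The part of vessel walls and fibroblasts in the members' rise was not tested.

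Des followed the cardiac share of a spot step by step. Over spots with 0.25 to 0.5%, 0.5 to 1%, 1 to 2%, 2 to 4% and at least 4% of UMIs in cardiac genes, Des stood at 87.5, 96.9, 153, 294 and 392 CPM (NV male). The same steps gave 63.7, 73.0, 154, 327 and 427 CPM (NV female) and 76.5, 147, 209, 377 and 394 CPM (V female). It was higher at each step than at the one before in all 3 mice, although the steps of 1 to 2% and 2 to 4% hold 14 and 18 spots in the NV female. Myh11 did so over the last 3 steps in the V female, at 54.9, 75.7 and 89.8 CPM. It did not in the NV male, at 47.6, 78.3 and 62.1 CPM, nor in the NV female, at 92.2, 24.2 and 42.3 CPM, where the first 2 values rest on 12 UMIs each. In spots under 0.25%, Des stood at 42.3 (V male), 70.6 (V female) and 37.0 CPM (NV female).

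**Figure D4:**
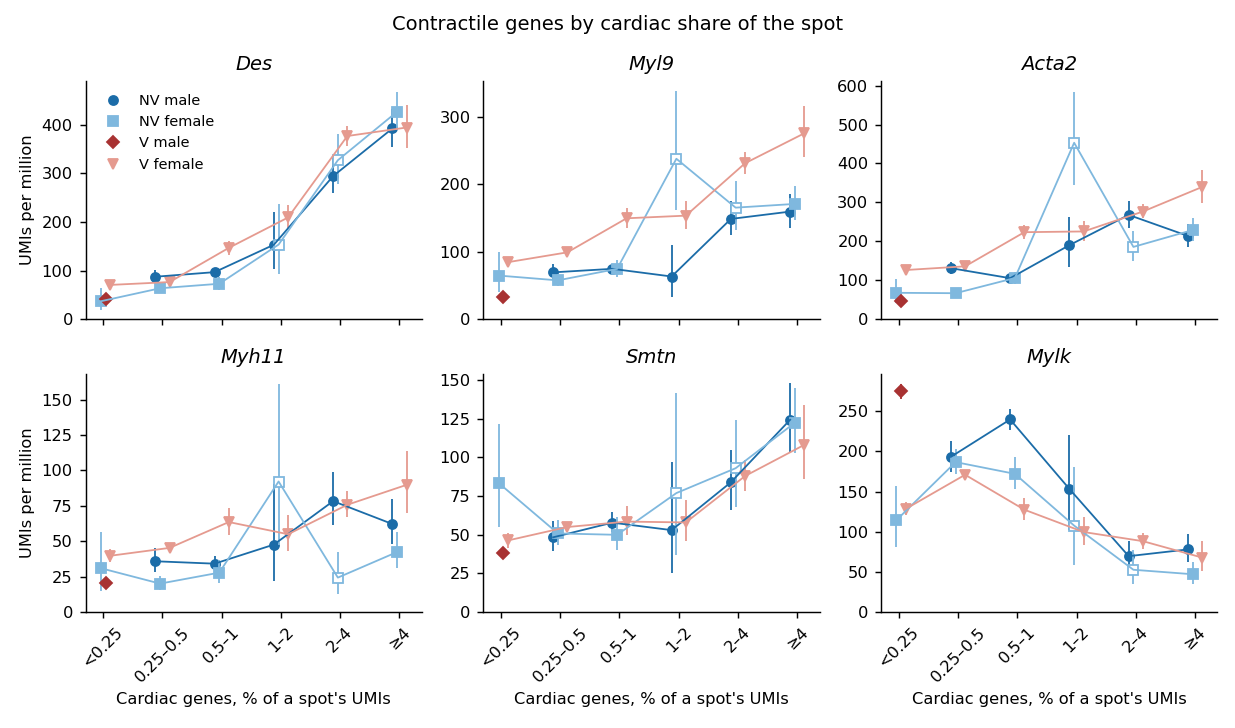
Levels of 6 members in CPM, by the percentage of a spot's UMIs in 10 cardiac genes, one line per section, with 95% Poisson intervals that cover counting error only. Open symbols are steps with 10 to 19 spots, steps with fewer are not drawn, and the V male has spots only under 0.25%. Des climbs to 392, 427 and 394 CPM in 3 sections, whereas Mylk is lowest in the last 2 steps.

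The comparison of V with NV mice asked whether the contractile genes differ after exposure, with the mouse as the replicate. Over whole sections, 0 of 14570 genes (0%) were called by edgeR, 0 members among them, and 248 genes but 0 members had an unadjusted p under 0.05. DESeq2's Wald test called 8 genes and limma 0, and neither called a member. With 2 mice in each group, an exact permutation test of 1 gene cannot give a two-sided p below 0.33.

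Des had the lowest fold change of V over NV on the log2 scale, at -0.77 (SE 0.62), with 144 ± 3.47 CPM (SD, n = 2) in NV and 82.8 ± 57.4 CPM in V mice. Smtn followed at -0.45 (SE 0.32), with 65.9 ± 1.05 CPM in NV and 48.0 ± 13.8 CPM in V mice. Acta2 averaged 129 ± 15.8 CPM in NV and 105 ± 82.4 CPM in V mice, at -0.26 (SE 0.70), and the other 7 members lay between -0.21 (Myl9) and 0.60 (Cnn1). None of these differences exceeded the spread between mice by the test, and the V mice spread more widely than the NV mice in 10 of 10 members. How often all genes did so was not counted, so the wider spread is not shown to be particular to the members.

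For 8 of the 10 members the fold change had opposite signs without the V male and without the V female. The median over members was 0.44 without the V male and -1.32 without the V female, against -0.01 and -0.02 over all genes. How many of all genes changed sign was not counted. Without the V male, Acta2 was at 0.41 (SE 0.22, adjusted p = 0.842) and Cnn1 at 1.51 (SE 0.37, adjusted p = 0.353), with 21 genes (0.139%) and 0 members called. Without the V female, 811 genes (5.47%) and 4 members were called, all 4 lower in the V male than in NV mice: Acta2 at -1.61 (SE 0.22, adjusted p = 0.0114), Cnn1 at -3.51 (SE 0.67, adjusted p = 0.0369), Des at -1.91 (SE 0.21, adjusted p = 0.00444) and Myl9 at -1.61 (SE 0.20, adjusted p = 0.00789). Those fits set 1 V mouse against 2 NV mice and take the lone mouse to vary like the others. The V male section is also the one with 28.4 CPM of cardiac genes and 695 CPM of airway epithelium genes. Its 7 fibroblast markers summed to 650.1 CPM against 1692 to 1994 CPM elsewhere, and its 7 airway smooth muscle markers to 25.1 against 80.9 to 87.7 CPM. Its 7 vascular smooth muscle markers, at 259.9 CPM, lay within the 252 to 285 CPM of the other sections, and its 7 pericyte markers, at 321 CPM, above their 270.5 to 288 CPM. The part of this tissue content in the members' values was not tested.

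**Figure D5:**
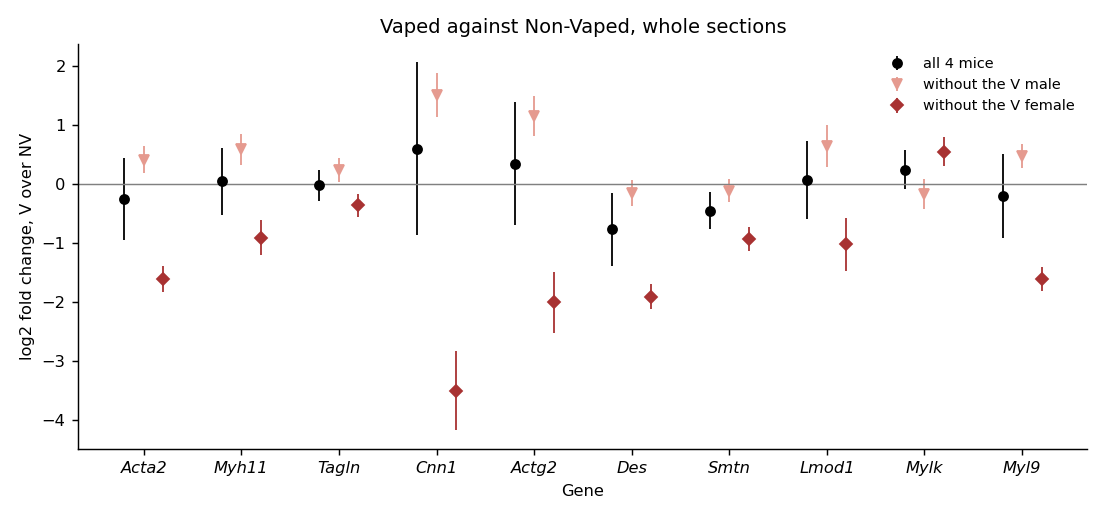
Log2 fold change of V over NV for each member over whole sections, as edgeR estimates ± standard error with all 4 mice (black), without the V male and without the V female. With all 4 mice the estimates run from -0.77 (Des) to 0.60 (Cnn1). Without the V female 9 of 10 members lie below 0, where the median over all genes is -0.02.

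Taking out cardiac-rich spots moved Des most. In the remaining spots 0 of 14390 genes (0%) and 0 members were called. At an unadjusted p under 0.05 there were 283 genes and 0 members, and 7 genes were called by DESeq2's Wald test. Des stood at -0.29 (SE 0.43) there against -0.77 over whole sections, and Smtn at -0.18 (SE 0.26) against -0.45. Without the V male these were 0.16 for Des and 0.10 for Smtn.

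Within airway-rich spots, 0 of 9568 genes (0%) were called by edgeR and 172 had an unadjusted p under 0.05, with 9 members passing the filter on low counts and 0 called. Within vessel-rich spots, 0 of 9889 genes (0%) and 0 of 10 members were called, and 332 genes had an unadjusted p under 0.05. Acta2 was at -0.41 (SE 0.82) in airway-rich and -0.05 (SE 0.62) in vessel-rich spots. In vessel-rich spots the V mice were again on either side of the NV mice, with Acta2 at 55.6 (V male) and 281 CPM (V female) around 172 and 186 CPM in NV. Without the V male, 3 members were called higher in V in vessel-rich spots, beside 1.12% of all genes called in either direction, and without the V female 3 were called lower, beside 3.29%. In airway-rich spots Acta2 stood at 0.26 without the V male, where 0 members and 2.08% of genes were called, and at -2.13 without the V female, where 2 members and 4.11% of genes were called.

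Other genes of the contractile pathway were read from lists by role. Of the genes that set myosin light chain phosphorylation, 12 of 12 were tested in the spot classes, and 0 were called in airway-rich or vessel-rich against other spots. In cardiac-rich spots, where 37.1% of all genes were called, 4 rose and 3 fell. These were led by Ppp1r12b (1.03, SE 0.12, adjusted p = 1.01e-06), a targeting subunit of myosin phosphatase, Ppp1cb (0.49), its catalytic subunit, and Rock2 (0.53), a kinase that restrains it. Of 16 partners of the thin filament and cytoskeleton, all tested, 7 rose and 6 fell in cardiac-rich spots, beside the same share of all genes. Among them were Tpm1, a tropomyosin (2.85, SE 0.12, adjusted p = 3.87e-14), Ldb3, a Z-disc protein of striated muscle (3.43), and Synpo2, an actin-bundling protein (1.86). None of the 16 was called in airway-rich or vessel-rich spots against other spots.

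Of 14 cardiac, skeletal and non-muscle counterparts of the members that were tested, 6 rose and 6 fell in cardiac-rich spots, beside 37.1% of all genes called. The genes with the smallest p were Actc1, the cardiac actin (3.30, SE 0.13, adjusted p = 2.48e-14), Mylk3, the cardiac myosin light chain kinase (3.46), and Lmod2, the cardiac leiomodin (4.29). Their fold changes were larger than those of Acta2 (1.80), Mylk (-0.81) and Lmod1 (1.2) in the same fit, a difference that was not tested.

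Of calcium handling and receptor genes, 3 of 6 and 4 of 9 tested were called in cardiac-rich spots, beside 37.1% of all genes. In cardiac-rich spots 2 of 6 tested calcium and potassium channel genes rose and 1 fell, with Atp2a2, the calcium pump of the sarcoplasmic reticulum, at 3.08 (SE 0.12, adjusted p = 3.61e-14), Cacna1c, the pore of the L-type calcium channel, at 0.86 and Orai1, the store-operated channel, at -0.39. Of 9 tested receptors 2 rose and 2 fell, including Adra1b, an adrenergic receptor that drives contraction (2.96), and Agtr1a, the angiotensin receptor (0.97). Of 9 tested genes of cyclic nucleotide relaxation 2 rose and 2 fell, beside the same share, with Mrvi1, a target of cGMP-dependent kinase, at 1.75, Prkaca at 0.77 and Pde5a, which breaks down cGMP, at -1.15. Among 9 tested transcriptional regulators 4 rose and 3 fell, among them Srf (1.05), the gene of serum response factor, Tbx5 (1.66) and Foxf1 (-1.43). Binding of serum response factor to the motif matches shown above was not measured.

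None of these 7 lists had a gene called in V against NV over whole sections. In 6 of them the most abundant gene stood at a log2 fold change of 0.08 (Myl6), 0.30 (Myl12a), -1.42 (Atp2a2), 0.31 (Ednrb), 0.08 (Pde5a) and 0.31 (Foxf1). Of these Atp2a2, also abundant in cardiac muscle, was the lowest, at 161 CPM in the V male against 1355 to 2120 CPM in the other sections.

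Genes outside the list that varied with the members over spots were sought outside cardiac muscle, by Pearson's r between log2(CPM + 100) of a gene and of the 10 members together, averaged over the 4 sections. Among 8546 genes the largest mean r was 0.168, for Myl12a, a non-muscle regulatory light chain, followed by Ramp2 (0.156), Postn (0.147), Icam1, Ace, Clic5, Tm4sf1, Ltbp4, Slc9a3r2 and Cyp2b10 (at least 0.136), against a median of 0.0348. The mean r of Myl12a was 0.222 without the V male. For Myl12a r ran from 0.00583 in the V male to 0.368 in the NV female. Spots of a section share a library and differ in depth, and values this weak in sparse counts set no gene apart.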

How the data were processed

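Poly(A) RNA of 1 lung section per mouse (2 V and 2 NV mice, grouped by the labels) was captured on Visium slides. The authors used SpaceRanger with the mm10 reference (GRCm38) of 10x and deposited raw UMI counts for every gene in each tissue-covered spot. The submitters' processing notes also name Seurat 4.0.3, whose scaling is not in these counts.

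UMIs were summed per mouse, or per mouse and spot class with at least 20 spots, and tested with edgeR 4.0.16 in R 4.3.3 (TMM, filterByExpr, quasi-likelihood, two-sided), where the study tested spots. Each standard error is the fold change divided by the square root of F. CPM were scaled to total UMIs alone. The fits were tested on simulated data. Alternatives used DESeq2 1.42.0, limma 3.58.1 (log2 of mean CPM, pseudocount 1), other classes and filters, and each mouse left out. Coordinates came from GENCODE vM21 and promoters from RefSeq. All 10 members are reported in every comparison. Of each other list, at most the 3 called genes with the smallest p are named, or where none was called the most abundant, and some of these genes are not reported here. Members and lists were chosen with earlier results of these data known. Whether same-group sections differ only as mice do is not known, since each mouse gave 1 section.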

Additional observations from a re-analysis of the deposited data

Results flagged for a closer look

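For 8 of the 10 members the V over NV ratio of the males and that of the females had opposite signs, and the difference between the sexes was not tested, since each rests on 1 mouse per group and sex. On the log2 scale, the female ratio minus the male ratio was 5.74 for Cnn1, 3.59 for Actg2, 2.16 for Lmod1, 2.06 for Acta2, 1.89 for Myh11, 1.85 for Myl9, 0.49 for Tagln and -0.53 for Mylk. Of these, 7 genes ran below 0 in males and above 0 in females, as Acta2 did, at -1.59 in males and 0.47 in females, and Mylk ran the other way, at 0.50 and -0.02. Among 14382 genes with a mean of at least 1 CPM, 50.5% had opposite signs in the sexes. The V male section also held 28.4 CPM of cardiac genes and 695 CPM of airway epithelium genes, against 7456 and 14296 CPM in the V female, so sex and tissue content cannot be told apart here.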

How the results depend on the processing

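Of 805 values of single members under alternatives, 760 stayed on the same side of the threshold, 10 lost and 32 gained a call, and 3 turned direction with a call, all in V over NV with 1 mouse left out. On the log2 scale Cnn1 over whole sections ran from -3.51 (V female left out) to 1.51 (V male left out), and in vessel-rich spots Myl9 ran likewise from -1.17 to 0.92 and Myh11 from -1.63 to 1.03. The sign of an uncalled value changed in 110 further values. In V against NV, leaving out 1 mouse gave 0 to 811 genes and 0 to 4 members over whole sections, 0 to 269 genes outside cardiac muscle, 0 to 402 genes and 0 to 2 members in airway-rich spots, and 0 to 318 genes and 0 to 3 members in vessel-rich spots. DESeq2's Wald test called 8 genes over whole sections and 7 outside cardiac muscle. Replicate numbers follow the sex, with no shared litter or day stated. With the replicate block, which leaves 1 residual degree of freedom, the count was 0 genes and 0 members in all 4 comparisons, so it says nothing about pairing. Over whole sections, deviations of same-numbered mice correlated at 0.323, genes at an unadjusted p under 0.05 went from 248 to 413 with the block, and members above 0 from 5 to 1.

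Leaving out 1 mouse gave 21 to 336 genes and 0 to 3 members in airway-rich against other spots, 16 to 126 genes and 0 to 4 members in vessel-rich against other spots, and 27 to 273 genes in airway-rich against vessel-rich spots. In airway-rich against other spots, the count was 130 genes and 1 member by DESeq2's Wald test, 866 and 4 without the filter on low counts, 385 and 1 with cardiac-rich at 0.5%, 465 and 1 with the top 5% of spots, and 130 genes with the top 20%. In vessel-rich against other spots the count was 35 genes and 1 member by the Wald test, and 409 and 7 without the filter. It was 125 and 4 at 0.5%, 82 and 2 at 2%, and 63 and 2 with DESeq2 size factors. With the top 5% of spots it was 44 and 5, and with the top 20% 103 and 1. At 0.5% the NV male had 14 airway-rich and 14 vessel-rich spots, under the 20 needed, so these classes lack that mouse. In airway-rich against vessel-rich spots it was 712 genes without the filter, 306 with the top 5% and 133 with the top 20% of spots, and at 0.5% cardiac-rich spots differed in 2041 genes. Causes were not tested. Depth limits Cnn1, Actg2 and Lmod1, which had 0 or 1 UMI in some classes.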
